A study of Mus musculus with 25 samples.

Results

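The expression of 9 genes of hepatic glucose, glycogen and fructose handling, out of 48795 genes in the deposited tables, was followed through mouse livers and liver tumors that differed in carcinogen exposure and diet. The genes were taken by name, with earlier results of these data known: Pck1, Pcx, Fbp1 and Ppargc1a for gluconeogenesis, Gys2, Gbe1 and Pygl for glycogen, and Khk and Slc2a5 for fructose. All 9 were matched by symbol to 1 Ensembl gene each, and all 9 passed the filter on low counts. Bulk RNA-seq had been made from 25 tissue samples of male C57BL/6J mice aged 36 weeks, in 5 groups. The nonDEN-L-CD group (n = 3) was liver of mice that never received the carcinogen and ate a control diet (CD), and the nonDEN-L-WD group (n = 4) was liver of such mice on a western diet (WD). The remaining groups came from mice that had received 1 intraperitoneal injection of diethylnitrosamine (DEN), a hepatocarcinogen activated in hepatocytes, at 25 mg/kg and 2 weeks of age. Injected mice on CD gave the DEN-L-CD group (n = 4), which was liver. Injected mice on WD gave both the liver around tumors (DEN-PT-WD, n = 8) and the tumors themselves (DEN-T-WD, n = 6). Both diets ran from weaning, and the western diet was richer in sucrose and lipid and poorer in starch than the control diet. No tumor group on the control diet is analysed here, so that the effect of diet on tumors cannot be read from these samples. The labels number the samples within a group without saying that each came from another mouse, so p-values measure the spread between these samples only. Feeding state and time of day at harvest are not in the labels.

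Gluconeogenesis builds glucose from lactate, alanine and glycerol, and the liver carries it out chiefly between meals. Pyruvate carboxylase (Pcx) makes oxaloacetate in mitochondria, cytosolic phosphoenolpyruvate carboxykinase (Pck1) turns oxaloacetate into phosphoenolpyruvate, and fructose-1,6-bisphosphatase (Fbp1) removes a phosphate further along the path. Pck1 transcription is known to rise with glucagon and cAMP and to fall with insulin, and Ppargc1a encodes the coactivator PGC-1α, which takes part in that control. After meals glucose is stored as glycogen by the liver glycogen synthase (Gys2) and the branching enzyme (Gbe1), and the liver glycogen phosphorylase (Pygl) releases it again. Fructose enters cells through transporters such as GLUT5 (Slc2a5), which is best known from the intestine, and ketohexokinase (Khk) traps it as fructose 1-phosphate ahead of the steps of glycolysis that are tightly controlled.

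Stretches ahead of the start sites of the 5 genes that were lower in tumors are shown here, since those genes shared a direction there. In the GRCm38 annotation of GENCODE, Pck1 (ENSMUSG00000027513) lies at chr2:173153048-173159273, Pcx (ENSMUSG00000024892) at chr19:4510472-4621752 and Fbp1 (ENSMUSG00000069805) at chr13:62864753-62888282. Pygl (ENSMUSG00000021069) lies at chr12:70190811-70231488 and Khk (ENSMUSG00000029162) at chr5:30921431-30931248. Ppargc1a (ENSMUSG00000029167) lies at chr5:51454250-51567726, Gys2 (ENSMUSG00000030244) at chr6:142422613-142473109, Gbe1 (ENSMUSG00000022707) at chr16:70313949-70569716 and Slc2a5 (ENSMUSG00000028976) at chr4:150119283-150144169. The sequences are from the RefSeq annotation of GRCm38.p6, 5′ to 3′ on the strand of the gene. For Pcx and Fbp1 they are the 200 bases before the RefSeq start site, and for Pck1 the bases from 200 to 26 before it, which end where the first GENCODE exon begins. Those of Pck1, Pcx and Fbp1 are, in that order, at chr2:173152873-173153047 (plus strand), chr19:4510272-4510471 (plus strand) and chr13:62888283-62888482 (minus strand). For Pygl and Khk they are 30 bases, at chr12:70227714-70227743 (minus strand) and chr5:30921477-30921506 (plus strand). The Khk stretch, which ends 53 bases before the RefSeq start site, lies within a GENCODE exon of Khk (30 of its 30 bases), in the 5′ UTR, and the other 4 stretches hold 0 exonic bases of their genes. The RefSeq start of Pygl is itself inside the GENCODE gene. Capitals mark matches to the motifs that were searched, on either strand.
Pck1: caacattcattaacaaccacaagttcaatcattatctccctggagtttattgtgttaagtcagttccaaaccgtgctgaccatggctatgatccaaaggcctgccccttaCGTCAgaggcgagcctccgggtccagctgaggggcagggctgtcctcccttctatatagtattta
Pcx: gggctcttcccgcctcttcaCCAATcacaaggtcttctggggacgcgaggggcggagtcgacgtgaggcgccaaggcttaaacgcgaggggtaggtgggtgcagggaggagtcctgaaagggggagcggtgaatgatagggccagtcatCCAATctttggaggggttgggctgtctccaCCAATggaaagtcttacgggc
Fbp1: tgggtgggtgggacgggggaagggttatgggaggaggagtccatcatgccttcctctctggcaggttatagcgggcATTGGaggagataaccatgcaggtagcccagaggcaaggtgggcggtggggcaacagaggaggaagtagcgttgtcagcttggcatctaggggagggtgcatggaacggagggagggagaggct
Pygl: cgcccccctgggggggCGTCActctgggag
Khk: gcgttcccCGTCACGTGacaccgttaatct

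The motifs were searched over 250 bases before to 50 after the start site, on both strands, in 32851 promoters, and 8 of the 9 genes had an entry there. The short form of the cAMP response element, TGACG, was present in 4 of the 8 (Pck1, Ppargc1a, Pygl and Khk) and in 20.8% of all promoters. In Pck1, Pygl and Khk it appears above as its reverse complement CGTCA. The full element TGACGTCA, which contains the short form, was in 0 of the 8 and in 1.79% of all promoters. The E-box CACGTG, known from carbohydrate response elements, was in Pcx, ahead of the stretch shown, and in Khk, where it overlaps TGACG on the other strand, and in 7.15% of all promoters. The CCAAT box, CCAAT, was in Pcx at 3 places of the stretch shown and in Fbp1 (printed as ATTGG), and in 37.4% of all promoters. The forkhead motif TGTTTAC and the C/EBP motif TTGCGCAA were in 0 of the 8, and in 3.65% and 0.183% of all promoters. These are matches of letters in this window, and binding was not measured.

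Libraries held 21530083 to 38074411 expected counts. The hepatocyte genes Alb and Apoa1 and their list (7 of 8 markers were in the files) were abundant in every group, with a summed level of 36237 TPM or more in every library. 2 libraries stood apart. Replicate 1 of nonDEN-L-WD held kidney transcripts (a sum of 1366 TPM over 5 markers, against at most 0.29 TPM in every other library), and the kidney is known to express gluconeogenic genes too. Replicate 5 of DEN-T-WD had the lowest sum of hepatocyte markers (36237 TPM, against a median of 125458 TPM in the tumors). The fits, isoenzyme shares and list counts were also computed without these 2, a choice made after seeing the data. Pancreas markers summed to between 9.74 and 5722 TPM, with low and high libraries in all 5 groups.

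On the TPM scale, which takes gene length into account, levels of the 9 genes spanned a wide range. Pck1 was the highest with a mean of 1048 TPM over all samples, followed by Fbp1 with 647 TPM. Khk (265 TPM), Pygl (214 TPM), Gys2 (206 TPM), Pcx (148 TPM) and Gbe1 (109 TPM) formed a middle group. Slc2a5 (6.86 TPM) and Ppargc1a (3.48 TPM) were far lower, and the smallest expected counts of a library for them were 83 and 152. Relative to its own mean Gbe1 varied most over the 25 samples (coefficient of variation 40.1%) and Fbp1 least (19.4%). The value for Gbe1 includes DEN-T-WD replicate 5 at 273.9 TPM, with the next sample at 150.1 TPM, and was not computed without it.

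In tumors, 5 of the 9 genes were lower than in peritumoral liver (DEN-T-WD against DEN-PT-WD) and 0 were higher. The 5 were Pck1, Fbp1, Khk, Pygl and Pcx, which means all 3 gluconeogenic enzymes, the glycogen phosphorylase and the ketohexokinase. The coactivator Ppargc1a, the 2 genes of glycogen synthesis and the fructose transporter did not pass. Of all 15625 genes tested 18.1% were lower and 19.5% were higher in this comparison. The median log2 fold change of the 9 genes was -0.45, against 0.01 over all genes. None of the 5 (0 of 9) fell by a log2 fold change of 1 or more, which 3.09% of all genes did. Against liver of untreated mice on the same diet (nonDEN-L-WD), 5 of 9 were lower and 0 higher (23.1% and 25.9% of all genes), namely Pck1, Khk, Pygl, Fbp1 and Pcx. These comparisons share the tumor samples and are not independent. In that second comparison Pck1 alone passed with a fold change over the limit, as did 5.24% of all genes in the lower direction. A gene passed at an adjusted p of at most 0.05 in edgeR's quasi-likelihood test, and normalized counts below are expected counts scaled to the effective library sizes. In these bulk samples fewer cells of a type and less RNA per cell cannot be told apart.

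Of the 9 genes 1 passed for diet in untreated liver and 0 for diet or DEN in the other 3 pairs of non-tumor groups, counts near what the shares of all genes would give for 9 genes. DEN-PT-WD is liver around tumors, and the study describes small tumors in DEN-treated mice on CD that could not be dissected apart, so that the nearness of a tumor cannot be told apart from diet or DEN where these groups are compared. In untreated liver the western diet raised 1 of 9, Pcx, and lowered 0, against 11.2% higher and 12% lower among all genes. DEN in control-diet liver changed 0 of 9 (9.12% higher and 12.2% lower among all genes), with 1 at an unadjusted p under 0.05. The western diet in DEN-treated liver (DEN-PT-WD against DEN-L-CD) changed 0 of 9 (6.8% and 3.76%), with 1 at an unadjusted p under 0.05. DEN in western-diet liver (DEN-PT-WD against nonDEN-L-WD) changed 0 of 9 (7.5% and 4.87%), with 0 at an unadjusted p under 0.05. By DESeq2 the counts were 1, 0, 1 and 0 in the same order. Of all genes DESeq2 called 1812, 1553, 1248 and 1451 higher and 2074, 1995, 972 and 1100 lower. The interaction of DEN with diet passed for 0 of 9, against 8.39% of all genes, with 1 at an unadjusted p under 0.05. The comparisons with nonDEN-L-CD share its 3 samples, and those with DEN-PT-WD share its 8. Between peritumoral liver and nonDEN-L-CD, Pck1 was lower (log2 fold change -0.68, SE 0.22, adjusted p = 0.0144) and Gbe1 higher (log2 fold change 0.63, SE 0.23, adjusted p = 0.0315). Of all genes 21.9% were lower and 23.5% higher there. This pair of groups differs in DEN, diet and the nearness of a tumor at once, which cannot be told apart. The Pck1 call was lost without nonDEN-L-CD replicate 1 (adjusted p = 0.0503) and on the TPM scale (-0.38, adjusted p = 0.172). That of Gbe1 was lost without nonDEN-L-CD replicate 1, 2 or 3 or peritumoral replicate 8 (adjusted p = 0.0521 to 0.1), while on the TPM scale its difference was larger (0.96, adjusted p = 0.00358), with 41.8% of all genes higher and 4.83% lower.

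**Figure D1:**
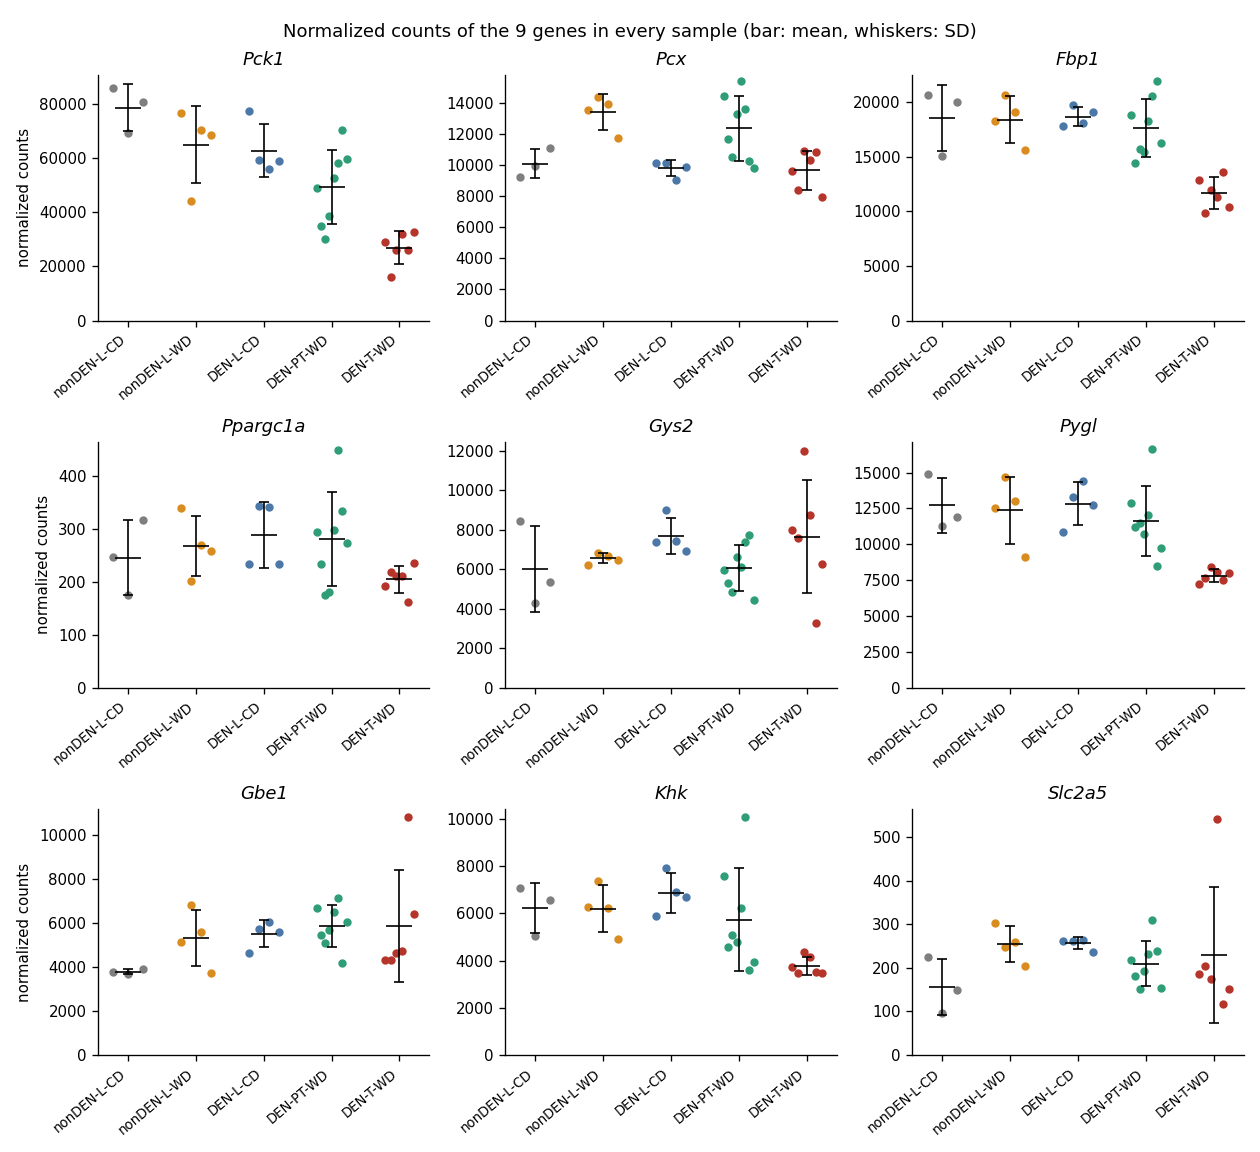
Normalized counts of the 9 genes in every sample (1 panel a gene, vertical axis normalized counts from 0, horizontal axis the 5 groups, 1 point a sample, horizontal bar the group mean and whiskers the SD). The DEN-T-WD points of Fbp1 and Pygl lie below all DEN-PT-WD points, and single DEN-T-WD samples stand high for Gbe1 (10805) and Slc2a5 (541).

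Pck1, whose product commits oxaloacetate to gluconeogenesis, showed the largest difference of the 9 in tumors. Pck1 had 85801, 69096 and 80680.2 normalized counts in the nonDEN-L-CD samples and 76424, 44242, 70409 and 68266 in the nonDEN-L-WD samples. In DEN-L-CD the counts were 77189, 59032, 55810.1 and 58790.0. Lowest, median and highest peritumoral counts were 30200.2, 50713 and 70265, and those of tumors were 16198, 27455 and 32570.5. Tumors were low and the untreated control-diet livers high, with tumors below every nonDEN-L-CD, nonDEN-L-WD and DEN-L-CD sample but with 1 peritumoral sample, the lowest, inside their range. The tumor mean of 26937 ± 5962 (SD, n = 6) was 1.82-fold below the peritumoral mean of 49166 ± 13734 (SD, n = 8) (log2 fold change -0.87, SE 0.18, adjusted p = 0.000704). Against nonDEN-L-WD the difference was 2.41-fold (log2 fold change -1.27, SE 0.21, adjusted p = 3.66e-05). Its group means ran from nonDEN-L-CD down to nonDEN-L-WD, then DEN-L-CD, then DEN-PT-WD, with DEN-T-WD last, and in that order only DEN-PT-WD and DEN-T-WD differed as neighbours. The peritumoral difference did not pass against nonDEN-L-WD (log2 fold change -0.40, 95% interval -0.81 to 0.01, adjusted p = 0.184) or DEN-L-CD (log2 fold change -0.35, 95% interval -0.76 to 0.06, adjusted p = 0.262).

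Pcx, whose product supplies the oxaloacetate, was the one gene with a diet difference in untreated liver. Pcx had 9229, 9965 and 11097 normalized counts in the nonDEN-L-CD samples and 13526, 14376, 13945 and 11742 in the nonDEN-L-WD samples. Samples of DEN-L-CD came to 10160.5, 10132, 9038 and 9846. DEN-PT-WD had 9817, 12471 and 15435 as its lowest, median and highest counts, and DEN-T-WD had 7979, 9958 and 10898. In normalized counts all 4 nonDEN-L-WD samples were above all 3 nonDEN-L-CD samples, and the tumors overlapped the control-diet livers. The western diet went with 1.33-fold higher Pcx in untreated liver (log2 fold change 0.41, SE 0.14, adjusted p = 0.0433). This call was lost in 6 of 7 fits that left out 1 sample of these groups (without nonDEN-L-CD replicate 1, 2 or 3, or nonDEN-L-WD replicate 1, 2 or 3; adjusted p over the 7 fits 0.0285 to 0.164), and without the library with kidney transcripts and the tumor library with low hepatocyte markers (log2 fold change 0.40, adjusted p = 0.0645). In DEN-treated liver the diet difference did not pass (log2 fold change 0.34, 95% interval 0.10 to 0.58, adjusted p = 0.0632). It passed by DESeq2 (0.32, adjusted p = 0.0416) and without peritumoral replicate 7 (0.37, adjusted p = 0.0387). In 11 of 12 fits that left out 1 sample it did not pass. On the TPM scale it passed (0.63, adjusted p = 0.00198), where the median of all genes moved to 0.23 and 38.5% of all genes were higher and 0.602% lower. The 2 diet differences themselves were not shown to differ, with an interaction, on the log2 scale, of -0.07 (adjusted p = 0.851). Tumors had 1.28-fold less Pcx than peritumoral liver (log2 fold change -0.36, SE 0.10, adjusted p = 0.00818) and 1.39-fold less than nonDEN-L-WD (log2 fold change -0.47, SE 0.12, adjusted p = 0.00242), but against DEN-L-CD the log2 fold change was -0.02 (adjusted p = 0.912), which came to 0.41 on the TPM scale and passed there in the higher direction (adjusted p = 0.0175), as 55.9% of all genes did (5.07% in the lower direction). The order of its group means was nonDEN-L-WD, DEN-PT-WD, nonDEN-L-CD, DEN-L-CD and DEN-T-WD, and no neighbours in it differed.

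Fbp1, which encodes the bisphosphatase opposing phosphofructokinase, overlapped between all non-tumor groups and was lower in tumors. Fbp1 had 20609, 15035 and 19966 normalized counts in the nonDEN-L-CD samples and 18262, 20667, 19088 and 15584 in the nonDEN-L-WD samples. The DEN-L-CD samples had 17828, 19758, 18045 and 19058. The lowest, median and highest counts were 14379.7, 17246 and 21891 in DEN-PT-WD and 9837, 11670.0 and 13595 in DEN-T-WD. The non-tumor groups overlapped one another throughout, and in normalized counts all 6 tumors lay below all 19 other samples. On the TPM scale the tumors, at 440.8 to 694.1 TPM, overlapped every other group, and 14 of the 19 samples were at or below the highest tumor. Tumors were 1.51-fold below peritumoral liver (log2 fold change -0.60, SE 0.10, adjusted p = 0.000103) and 1.57-fold below nonDEN-L-WD (log2 fold change -0.66, SE 0.12, adjusted p = 0.000107). Among the non-tumor groups the largest of the 4 planned differences was DEN-PT-WD against DEN-L-CD (log2 fold change -0.08, 95% interval -0.32 to 0.16, adjusted p = 0.691).

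Ppargc1a, the coactivator gene, was sparse and 0 of its differences between groups passed the test. Ppargc1a had 247, 175 and 317 normalized counts in the nonDEN-L-CD samples and 340.4, 202, 270.0 and 258 in the nonDEN-L-WD samples. In DEN-L-CD the counts were 234, 343, 341 and 234. Lowest, median and highest peritumoral counts were 176, 285 and 450.5, and those of tumors were 162, 212 and 236. Peritumoral samples covered the ranges of nearly all others, and tumors sat at the low end without separating. The tumor difference did not pass (log2 fold change -0.45, 95% interval -0.83 to -0.07, adjusted p = 0.0583). It passed by DESeq2 (adjusted p = 0.0483) and without peritumoral replicate 3 (adjusted p = 0.0231) or replicate 4 (adjusted p = 0.0258). Against nonDEN-L-WD the log2 fold change was -0.38 (adjusted p = 0.151). The transcript length that RSEM weighted by abundance ran from 3169 to 5872 bases for this gene, a spread of 85.3%, so the mixture of transcripts assigned to it differed between libraries.

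**Figure D2:**
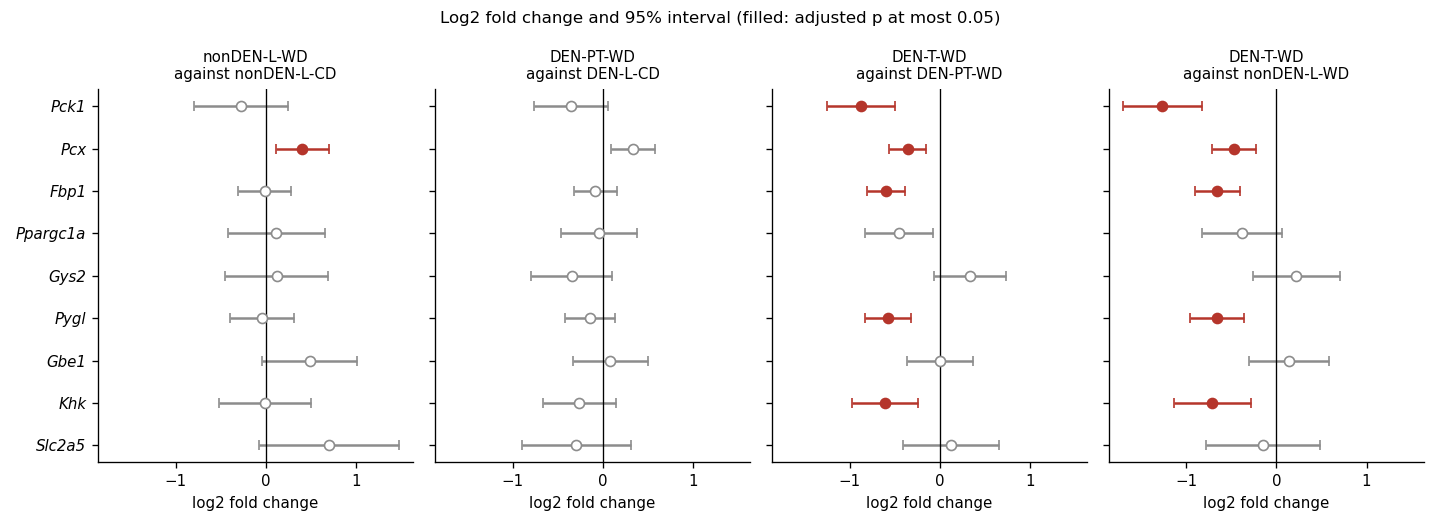
Log2 fold changes of the 9 genes with 95% intervals (1 panel for each of 4 comparisons, horizontal axis log2 fold change, filled points for an adjusted p of at most 0.05). Filled points are Pcx for diet in untreated liver, and Pck1, Fbp1, Khk, Pygl and Pcx, all lower, for tumors against peritumoral liver, from -0.87 for Pck1 to -0.36 for Pcx. Those 5 are also filled in the panel of tumors against nonDEN-L-WD, and the panel setting DEN-PT-WD beside DEN-L-CD has 0 filled points.

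Gys2, the liver glycogen synthase, varied among tumors beyond the whole range of peritumoral liver. Gys2 had 8446, 4274 and 5348 normalized counts in the nonDEN-L-CD samples and 6239.5, 6832, 6691 and 6499.6 in the nonDEN-L-WD samples. Samples of DEN-L-CD came to 7367, 9005, 7444 and 6927. DEN-PT-WD had 4426, 6048 and 7734 as its lowest, median and highest counts, and DEN-T-WD had 3303, 7802 and 12018. Replicate 5 was the lowest tumor and replicate 3 the highest, so that tumors lay both below and above all peritumoral samples. The tumor difference did not pass (log2 fold change 0.34, 95% interval -0.06 to 0.74, adjusted p = 0.183). Without tumor replicate 5, the library with the lowest hepatocyte markers, it passed in the higher direction (log2 fold change 0.49, adjusted p = 0.015). No neighbours in the order of its group means differed, and nonDEN-L-WD and DEN-L-CD did not overlap.

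Gbe1, which adds branches to growing glycogen, had its lowest levels in untreated livers on the control diet. Gbe1 had 3771, 3686 and 3922 normalized counts in the nonDEN-L-CD samples and 5134, 6820.3, 5581 and 3736 in the nonDEN-L-WD samples. The DEN-L-CD samples had 4643, 5741, 6066 and 5579. The lowest, median and highest counts were 4161, 5878 and 7134 in DEN-PT-WD and 4305, 4671 and 10805 in DEN-T-WD. Every sample of the 3 groups that had received DEN was above the 3 nonDEN-L-CD samples, while 1 nonDEN-L-WD sample fell inside their range. Against nonDEN-L-CD, Gbe1 was higher in tumors (log2 fold change 0.63, SE 0.24, adjusted p = 0.0305), and the differences for DEN-L-CD (log2 fold change 0.54, 95% interval 0.01 to 1.07, adjusted p = 0.137) and nonDEN-L-WD (log2 fold change 0.49, 95% interval -0.04 to 1.01, adjusted p = 0.174) did not pass. The tumor value rested on replicate 5, without which it was 0.36 (adjusted p = 0.0768), and its call was also lost without nonDEN-L-CD replicate 1, 2 or 3 (adjusted p = 0.0666 to 0.0932) and with these 2 groups fitted alone (adjusted p = 0.108). On the TPM scale it was larger (1.04, adjusted p = 0.00169), where 53.4% of all genes were higher and 6.24% lower, against 27.8% and 26.2% in the edgeR fit. With DEN-L-CD and nonDEN-L-CD fitted alone, their difference passed (log2 fold change 0.53, adjusted p = 0.00974). Tumors and peritumoral liver had nearly the same mean (log2 fold change 0.00, 95% interval -0.36 to 0.37, adjusted p = 0.99), with tumor replicate 5 at 10805 and the next at 6428. Without replicate 5 the log2 fold change turned to -0.26 (adjusted p = 0.122).

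Pygl, the liver phosphorylase that breaks glycogen down, was lower in tumors, which just cleared the other samples in normalized counts. Pygl had 14905, 11293 and 11928 normalized counts in the nonDEN-L-CD samples and 12559, 14725, 13035 and 9113 in the nonDEN-L-WD samples. In DEN-L-CD the counts were 10868, 13285, 14429.9 and 12735. Lowest, median and highest peritumoral counts were 8454, 11333 and 16657, and those of tumors were 7200.1, 7823 and 8449.6. The tumors kept to a narrow and low range, the highest of them barely under the lowest peritumoral sample, and the 4 non-tumor groups overlapped. In TPM, where tumors had 167.8 to 183.3, 3 of the 19 other samples were at or below the highest tumor, 1 each from nonDEN-L-WD, DEN-L-CD and DEN-PT-WD. Tumors were 1.49-fold below peritumoral liver (log2 fold change -0.58, SE 0.12, adjusted p = 0.000804) and 1.58-fold below nonDEN-L-WD (log2 fold change -0.66, SE 0.14, adjusted p = 0.000593). Diet in untreated liver (log2 fold change -0.04, 95% interval -0.39 to 0.31, adjusted p = 0.898) and DEN in control-diet liver (log2 fold change 0.01, 95% interval -0.34 to 0.37, adjusted p = 0.966) gave no difference past the threshold.

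Khk, which phosphorylates fructose, showed no diet difference past the threshold and was lower in tumors. Khk had 7054, 5036 and 6562 normalized counts in the nonDEN-L-CD samples and 6284, 7361, 6212 and 4932 in the nonDEN-L-WD samples. Samples of DEN-L-CD came to 5883, 7933, 6902 and 6709. DEN-PT-WD had 3604, 4936 and 10077 as its lowest, median and highest counts, and DEN-T-WD had 3452, 3636 and 4359. Peritumoral samples were the most scattered, with replicates 7 and 8 as low as the tumors and replicate 6 the highest of all samples. The diet difference did not pass in untreated liver (log2 fold change -0.0045, 95% interval -0.52 to 0.51, adjusted p = 0.993) or in DEN-treated liver (log2 fold change -0.26, 95% interval -0.66 to 0.15, adjusted p = 0.416). Tumors were 1.52-fold below peritumoral liver (log2 fold change -0.60, SE 0.18, adjusted p = 0.0101) and 1.64-fold below nonDEN-L-WD (log2 fold change -0.71, SE 0.21, adjusted p = 0.0065), with no overlap in the latter in normalized counts but with overlap in TPM (tumors 193.2 to 236.2, nonDEN-L-WD from 186.9). The abundance-weighted length of Khk ran from 1130 to 1208 bases. Levels of its isoforms are not analysed here.

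Slc2a5, the gene of the fructose transporter GLUT5, was low in all samples. Slc2a5 had 225, 95.4 and 150.1 normalized counts in the nonDEN-L-CD samples and 304, 248, 261 and 204 in the nonDEN-L-WD samples. The DEN-L-CD samples had 263, 263, 265 and 236. The lowest, median and highest counts were 152, 205 and 309 in DEN-PT-WD and 117, 181 and 541 in DEN-T-WD. Replicate 2 of nonDEN-L-CD was the lowest of all samples and tumor replicate 4 the highest, far above the other tumors. The western diet in untreated liver did not pass (log2 fold change 0.70, 95% interval -0.08 to 1.48, adjusted p = 0.187). Neither did DEN in control-diet liver (log2 fold change 0.71, 95% interval -0.07 to 1.49, adjusted p = 0.187), with every DEN-L-CD sample above every nonDEN-L-CD sample. The tumor difference from peritumoral liver did not pass (log2 fold change 0.13, 95% interval -0.41 to 0.66, adjusted p = 0.738). Without tumor replicate 4 Slc2a5 was lower in tumors than in nonDEN-L-WD (log2 fold change -0.61, adjusted p = 0.0208), and with it the value was -0.15 (adjusted p = 0.705). The interaction of DEN with diet did not pass (log2 fold change -0.99, 95% interval -1.98 to -0.01, adjusted p = 0.202), and it passed where only the 4 non-tumor groups were fitted (-0.998, adjusted p = 0.0462). Its abundance-weighted transcript length spread by 47.8%, from 1484 to 2193 bases.

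The scale changed which of the 5 tumor calls held, not their direction. On log2(TPM + 1) with limma the median of all genes moved to 0.09 between tumor and peritumoral liver and to 0.26 between tumor and nonDEN-L-WD. Of all genes 27% were higher and 8.92% lower in tumors than in peritumoral liver on that scale, and 48% higher and 7.19% lower than in nonDEN-L-WD, while the edgeR fit had called nearly as many lower as higher. There, 3 of 9 genes were lower in tumors than in peritumoral liver (Pck1, Fbp1 and Pygl), while Pcx was at -0.22 (adjusted p = 0.172) and Khk at -0.38 (adjusted p = 0.104). Against nonDEN-L-WD 1 of 9 was lower (Pck1) and 1 higher (Gys2, 0.57, adjusted p = 0.0381). Fbp1 at -0.32 (adjusted p = 0.0792), Khk at -0.32 (adjusted p = 0.208), Pygl at -0.28 (adjusted p = 0.146) and Pcx at -0.12 (adjusted p = 0.512) did not pass there.

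Liver isoenzymes of glycogen phosphorylase and phosphoenolpyruvate carboxykinase made up less of their enzyme family in tumors. Pygl gave 98.9% ± 0.20 (SD, n = 3) of the summed TPM of Pygl, Pygb and Pygm in nonDEN-L-CD and 96.8% ± 1.18 (SD, n = 8) in peritumoral liver, but 89.0% ± 1.43 (SD, n = 6) in tumors. The tumors ranged from 87.0% to 90.9%, below the lowest peritumoral sample at 95.3%. The difference of -7.82 percentage points had an exact two-sided permutation p of 0.000666, the smallest that 6 against 8 samples allow, and 0.002 after adjustment over 6 such tests. Pygb, the brain isoenzyme of the phosphorylase, rose from 6.34 ± 2.81 TPM (SD, n = 8) to 20.9 ± 3.23 TPM (SD, n = 6), and was 1.62 TPM in nonDEN-L-CD. The muscle isoenzyme Pygm was at 1.34 and 1.06 TPM in peritumoral liver and tumors.

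For Pck1 the share fell from 99.8% ± 0.07 (SD, n = 8) in peritumoral liver to 99.1% ± 0.35 (SD, n = 6) in tumors, a difference of -0.72 percentage points (exact permutation p = 0.000666, adjusted 0.002). Pck2, the mitochondrial enzyme, rose from 2.29 ± 0.35 to 5.96 ± 1.58 TPM (SD, n = 8 and 6). The Gys2 share was 99.5% in both tissues (difference 0.03 percentage points, exact permutation p = 0.943). Without tumor replicate 5 that difference was 0.20 percentage points (exact permutation p = 0.014). Between the diets in untreated liver the Pygl share differed by -0.59 percentage points at the smallest p that 4 against 3 samples allow (exact permutation p = 0.0571, adjusted 0.114).

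**Figure D3:**
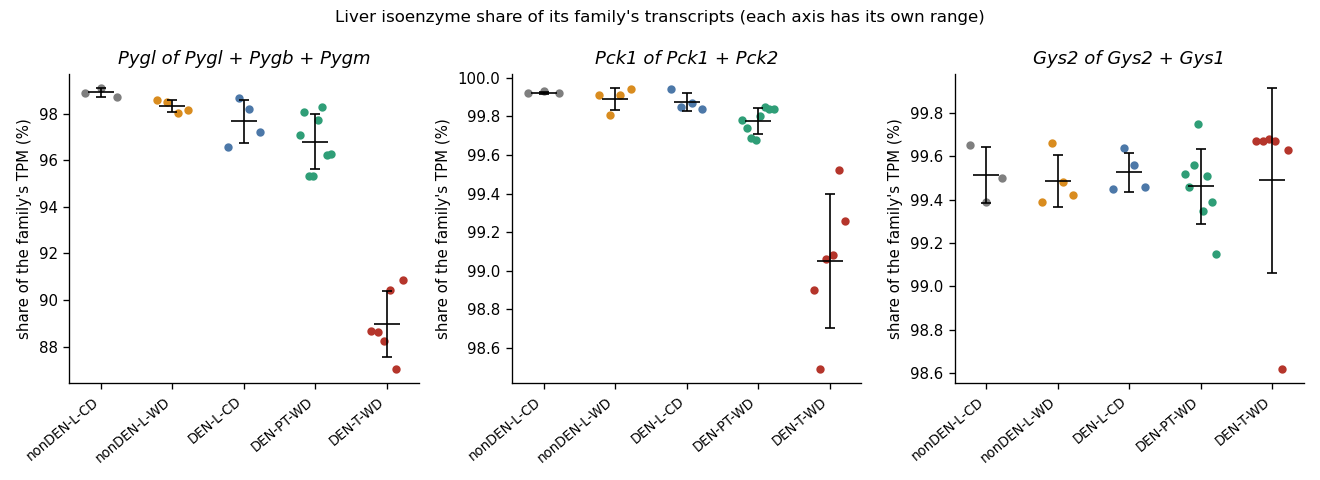
Share of the liver isoenzyme in the summed TPM of its family, in percent, for Pygl, Gys2 and Pck1 (1 panel each, vertical axes with their own ranges that do not start at 0, 1 point a sample, horizontal bar the group mean and whiskers the SD). Tumors lie at 87.0 to 90.9% for Pygl, below all other samples, while the Gys2 share stays near 99.5%.

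The other genes of these pathways were counted over lists that left out the 9 genes. Of 25 genes of gluconeogenesis and glucose release, 7 were lower and 2 higher in tumors than in peritumoral liver (median log2 fold change -0.26, against 0.01 over all genes tested, of which 18.1% were lower and 19.5% higher). Without the 2 libraries that stood apart the counts were 10 and 2. The glucose-6-phosphatase G6pc, the last step of glucose release, had the largest decrease (log2 fold change -1.38, SE 0.27, adjusted p = 0.000349). The glycerol channel Aqp9 (log2 fold change -0.87, SE 0.08, adjusted p = 6.31e-08) and the cytosolic malate dehydrogenase Mdh1 (-0.59) fell as well. Pck2 (log2 fold change 1.26, SE 0.17, adjusted p = 6.85e-06) and the phosphoglucose isomerase Gpi1 (0.45) rose. Against nonDEN-L-WD 16 of the 25 were lower and 2 higher (23.1% and 25.9% of all genes).

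Of 23 glycogen genes tested (24 on the list), 5 rose and 5 fell in tumors (median -0.17). Pygb rose most (log2 fold change 1.64, SE 0.20, adjusted p = 1.76e-06), followed by the phosphoglucomutase Pgm2 (0.95) and the glycogen primer glycogenin, Gyg (0.46). Epm2a, which encodes the glycogen phosphatase laforin, fell most (log2 fold change -0.72, SE 0.16, adjusted p = 0.00105), and the phosphorylase kinase subunit Phkg2 (-0.24) and Pgm1 (-0.21) fell by less. Of 19 fructose and polyol genes 2 rose and 6 fell (median -0.25). Aldose reductase, Akr1b3, which starts the route from glucose to sorbitol, rose (log2 fold change 1.12, SE 0.20, adjusted p = 0.000162), as did the aldehyde dehydrogenase Aldh1b1 (0.61). Sorbitol dehydrogenase, Sord, which turns sorbitol into fructose, fell (log2 fold change -0.67, SE 0.10, adjusted p = 1.6e-05), and so did the aldehyde dehydrogenase Aldh2 (-0.67). Of 30 regulators 11 fell and 1 rose (median -0.21). The CREB coactivator Crtc2 (log2 fold change -0.44, SE 0.06, adjusted p = 5.36e-06), the transcription factors Cebpb (-0.63) and Klf15 (-0.58) were among those that fell, and the insulin receptor Insr was the one that rose (0.29).

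**Figure D4:**
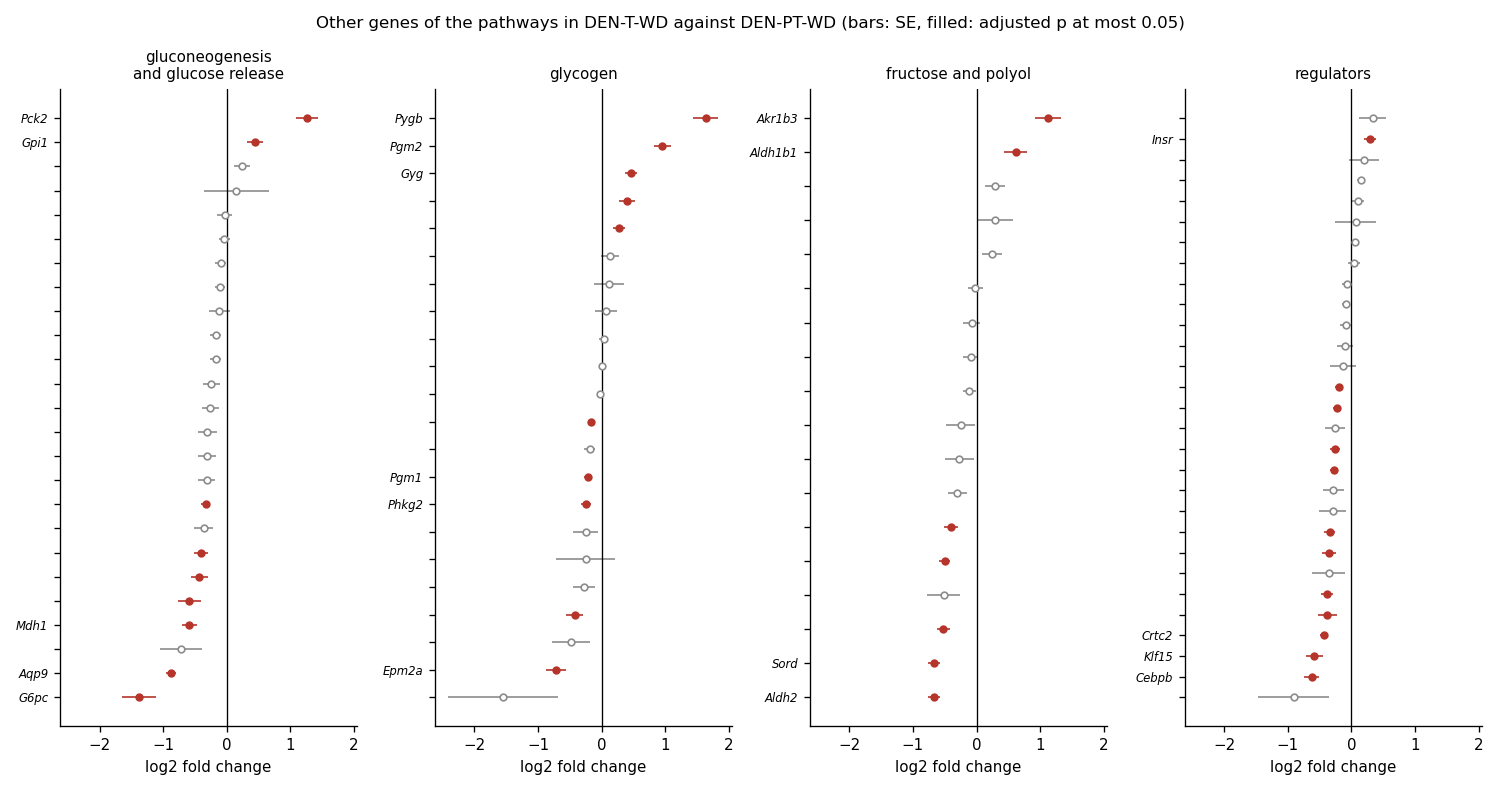
Log2 fold changes of tumors against peritumoral liver for the tested genes of the 4 lists without the 9 genes and without 3 that are not reported here (1 panel a list, 1 row a gene, names only for genes named in the text, horizontal axis log2 fold change, bars SE, filled for an adjusted p of at most 0.05). Filled points lie mostly below 0 for gluconeogenesis, fructose and polyol genes and regulators, and on both sides for glycogen genes, where Pygb stands highest at 1.64.

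In untreated liver the western diet raised more of the pathway genes around the 9 than it lowered. Of 95 distinct genes tested on the 4 lists, 19 were higher and 7 lower, where 11.2% and 12% of all genes were. Between tumors and peritumoral liver 10 were higher and 28 lower, where 19.5% and 18.1% of all genes were. Without the 2 libraries that stood apart the counts were 19 and 5 for diet and 10 and 29 for tumors, and without the library with kidney transcripts alone 15 and 5 for diet. Of the glycogen genes 6 of 23 rose and 0 fell (median 0.40). Epm2a (log2 fold change 1.47, SE 0.24, adjusted p = 0.000156) and the phosphorylase kinase subunit Phka2 (log2 fold change 0.94, SE 0.13, adjusted p = 2.77e-05) rose most. Of the gluconeogenic list 7 of 25 rose and 1 fell (median 0.08), with rises of the dicarboxylate carrier Slc25a10 (1.06), the glucose transporter GLUT2, Slc2a2 (0.79), and the glycerol kinase Gk (0.62), and a fall of Pfkfb1 (-0.64). Of the fructose and polyol list 6 of 19 rose and 1 fell (median 0.30). Slc2a2, which also carries fructose, is on this list too, and Aldh1b1 (0.75) and the alcohol dehydrogenase Adh1 (0.75) rose, while the glycerate kinase Glyctk fell (-0.59). Of the regulators 1 of 30 rose (Prkaca, 0.34) and 5 fell, among them Hnf4a (-0.57) and Cebpb (-0.49). Of the genes named here Aldh1b1 (0.61, adjusted p = 0.123) and Cebpb (-0.50, adjusted p = 0.0519) did not pass without the 2 libraries, nor Gk (0.59, adjusted p = 0.0525) without the library with kidney transcripts alone, which took the gluconeogenic count from 7 to 4 rises.

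In the other comparisons the lists gave these counts. DEN in control-diet liver went with 16 higher and 10 lower of the 95 (9.12% and 12.2% of all genes), and it shares the 3 nonDEN-L-CD samples with the diet comparison. The western diet in DEN-treated liver went with 5 higher and 1 lower (6.8% and 3.76% of all genes), and DEN in western-diet liver with 7 higher and 11 lower (7.5% and 4.87%), or 4 and 6 without the library with kidney transcripts alone. The interaction of DEN with diet passed for 10 of the 95, all negative, where 3.74% of all genes passed as negative and 4.65% as positive (0.864% and 6.91% on the TPM scale), and 4 of these were glycogen genes, among them Epm2a, Phka2 and Pgm1, named here after their values were seen.

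Some other measures also differed between tumors and peritumoral liver. All 8 markers of pericentral hepatocytes, the cells around the central vein, were lower in tumors than in peritumoral liver (median log2 fold change -1.37), and their summed level was 1475 to 3178 TPM in tumors and 5001 to 8275 TPM in peritumoral liver. Of 8 periportal markers 4 were lower and 2 higher. Of 7 hepatocyte markers Alb and Apoa1 were higher and 0 lower, with a summed level of 36237 to 136908 TPM in tumors and 46833 to 74896 TPM in peritumoral liver. Of 6 bile duct markers Sox9 and Spp1 were higher, with a sum of 384.9 to 833.6 TPM in tumors and 73.8 to 324.6 TPM in peritumoral liver. Of 8 macrophage markers 3 were lower and 0 higher, and of 8 stellate and fibroblast markers 4 were higher and 3 lower. Of 8 fasting genes 3 were higher and 3 lower, of 8 feeding genes 1 and 1, and of 13 clock genes 1 higher and 2 lower. Of all genes 19.5% were higher and 18.1% lower in this comparison. The part of these measures in the results on the 9 genes was not tested. In untreated liver 5 of 8 pericentral markers were higher on the western diet and 0 lower. So were 3 of 8 stellate and fibroblast markers (Col1a1, Col1a2 and Col3a1) and 2 of 5 adipose markers (Cfd and Lep, the list summing to 2.44 to 2.98 TPM in nonDEN-L-CD and 22.02 to 78.5 TPM in nonDEN-L-WD), with 0 lower on either list. Of the hepatocyte markers Fgb and Hpx were lower and 0 higher. The part of these in the diet results was not tested either. The decreases of the 5 genes in tumors were called in all 14 fits that left out 1 tumor or peritumoral sample, and without the 2 libraries that stood apart.

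Within groups some of the genes moved together from sample to sample. Over all 25 samples Pygl and Khk had the closest relation of any pair of the 9 (Pearson r 0.936, Spearman rho 0.940 on log2 CPM). For deviations from the group means r was 0.890, and 0.792 without the 2 samples farthest from the median of Pygl. Pck1 and Fbp1 had r 0.808 over all samples and 0.440 within groups. Gys2 and Slc2a5 had r 0.629 within groups. Gys2 and Gbe1 had r -0.545 within groups, which came to -0.212 without tumor replicate 5. The points share groups and libraries, and these values are descriptions.

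**Figure D5:**
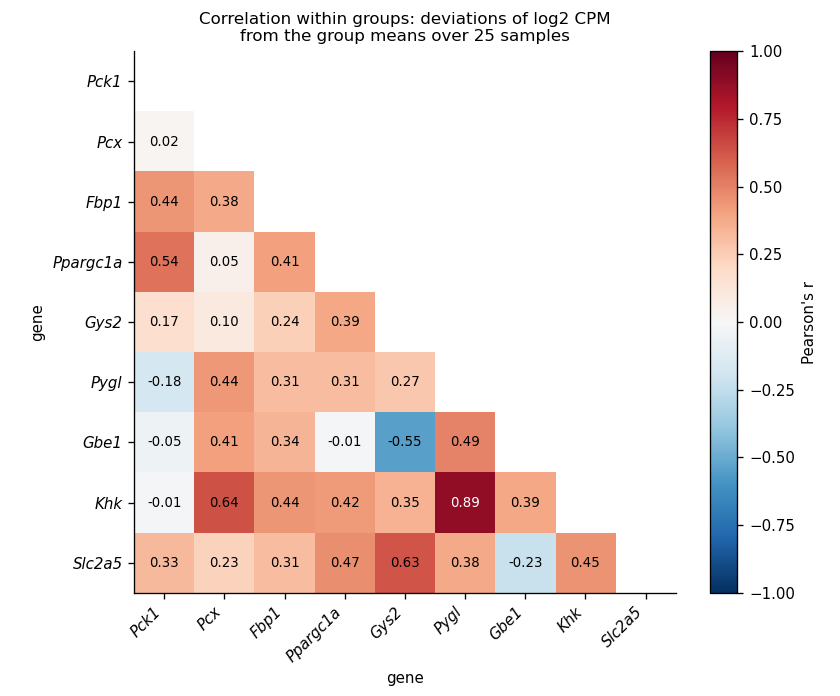
Pearson correlations of log2 CPM between the 9 genes, for deviations from the group means over 25 samples (rows and columns genes, colour scale from -1 to 1). Pygl and Khk have the highest value (0.890), and the pair of Gys2 and Gbe1 has the lowest (-0.545).

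For each gene, those of the whole tested table with the most similar pattern over the 25 samples were listed by Pearson r of log2 CPM. For Pck1 they were Fpgs (0.939) and the tyrosine aminotransferase Tat (0.920), for Fbp1 Hgd (0.941) and Tmem86b (0.924), and for Pcx Ppa2 (0.880) and Acsf3 (0.874). Pygl had Khk (0.936) and Cyb5b (0.917), and Khk had Pygl and Gckr (0.903), whose protein binds fructose 1-phosphate. Gys2 had the clock gene Nr1d2 (0.907) and March5 (0.829), and Gbe1 had the transketolase Tkt (0.893) and Cryl1 (0.886). The least abundant genes had looser partners, Papss2 (0.801) and Gm4737 (0.769) for Ppargc1a, and Fbxl4 (0.743) and the clock-controlled Dbp (0.726) for Slc2a5. Within groups r of Gys2 with Nr1d2 was 0.937 and that of Slc2a5 with Dbp was 0.684.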

How the data were processed

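RNA had been taken from 25 mouse liver and tumor samples, and single-end mRNA libraries were sequenced. The authors aligned reads with STAR to GRCm38 and estimated expected counts, TPM and FPKM per gene with RSEM. Per the file headers, the deposited table of each sample holds the expected count, TPM, FPKM and abundance-weighted length of every gene. The sources used here name STAR and RSEM without a version number. They also leave out the strand setting and which release of the annotation was used. Genes were named through GENCODE for GRCm38 (48349 of 48795 with a symbol).

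The counts, rounded to integers, were fitted for all 25 samples and 5 groups with edgeR 4.0.16 (quasi-likelihood test, TMM, filterByExpr with a minimum count of 10, R 4.3.3). P-values were adjusted by Benjamini and Hochberg over 15625 genes, and a gene passed at 0.05. The study's second limit, an absolute log2 fold change of 1, is given where used. Intervals for log2 fold changes are for single genes and use the degrees of freedom of the fit. Isoenzyme shares were taken from TPM and compared by exact two-sided permutation tests (SciPy 1.17.1), and again from expected counts and FPKM. RSEM shares reads of near-identical sequence among genes, which could move reads between paralogs.

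Alternatives were DESeq2 1.42.0 size factors and its Wald test, no filter, only the groups compared, the replicate number as a block, limma 3.58.1 on log2(TPM + 1), and each sample left out. After seeing the data, leaving out 2 libraries was added. The edgeR step was tested on simulated data. Libraries of a group never matched within sampling noise (a chi-square per gene of 29.1 or more), so each counted once. Library depth was 21530083 to 38074411 expected counts. Named pathway genes are, per list, up to 3 with the largest rise and up to 3 with the largest fall among those that passed, with a minimum of 100 normalized counts in the group that was higher. Values of 3 list genes and 1 motif are not reported here, while the genes stay in the counts of their lists. The 9 genes and the lists were chosen with earlier results of these data known. Figures were drawn with Matplotlib 3.10.9.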

Additional observations from a re-analysis of the deposited data

Results flagged for a closer look

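Of 36 sets of 4, 6 or 8 samples (9 genes in 4 groups), 4 held a sample far from the others by Dixon's test, which chance alone gives for about 1 set in 20. Pck1 in DEN-L-CD was highest in replicate 1 (77189 normalized counts, the next 59032). Gbe1 in DEN-T-WD was highest in replicate 5 (10805, the next 6428), the tumor library with the lowest hepatocyte markers. Slc2a5 in DEN-L-CD was lowest in replicate 4 (236, the next 263). Slc2a5 in DEN-T-WD was highest in replicate 4 (541, the next 203).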

How the results depend on the processing

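Over the 6 comparisons of the design and the interaction, of 1152 values of the 9 genes under the alternatives, 1050 kept their side of the threshold and direction, 15 newly passed, 14 no longer passed and 73, which did not pass, changed sign. 0 called values changed sign. Other pairs of groups are not in these counts. Ppargc1a and Slc2a5 had the lowest counts in a library, down to 152 and 83, and the effect of depth was not tested. Without a filter, 0 genes of the 9 passed for diet in untreated liver, as without the 2 libraries that stood apart. Fitting only the groups compared gave 1 gene for DEN in control-diet liver (Gbe1), where 1597 of all genes were higher and 1955 lower. It gave 1 for the interaction (Slc2a5), where 815 of all genes passed as positive and 779 as negative. The limma fit on TPM gave 3 genes for tumors against peritumoral liver, 2 against nonDEN-L-WD and 1 for diet in DEN-treated liver (Pcx), as DESeq2 did with 1 (Pcx). Over all genes the limma fit passed 2064 for diet in untreated liver (3626 in the edgeR fit), 1652 for DEN in control-diet liver (3327), 6108 for diet in DEN-treated liver (1650) and 3457 for DEN in western-diet liver (1933), and 5616 (5884) and 8628 (7656) for tumors against peritumoral liver and nonDEN-L-WD, of which 75.2% and 87% were higher (51.8% and 52.8% in the edgeR fit). For the 4 non-tumor comparisons the medians of all genes moved to 0.08, 0.04, 0.23 and 0.16, and the share of calls that were higher to 70.9%, 48.8%, 98.5% and 97.5% (48.3%, 42.8%, 64.4% and 60.6%). No filter gave 1060 genes for diet in DEN-treated liver and 817 for the interaction (1311). The cause of these changes was not tested.

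Leaving out 1 sample at a time gave 0 to 1 of the 9 genes and 1889 to 3809 of all genes for diet in untreated liver, and 1734 to 3252 of all genes for DEN in control-diet liver. It gave 0 to 1 of the 9 and 743 to 2230 of all genes for diet in DEN-treated liver (Pcx passed without peritumoral replicate 7), and 655 to 2651 of all genes for DEN in western-diet liver. It gave 5 to 6 of the 9 for tumors against either liver, with 5199 to 6408 of all genes against peritumoral liver and 6899 to 7908 against nonDEN-L-WD, and 570 to 1640 of all genes for the interaction. For tumors against peritumoral liver the exception to 5 was Ppargc1a without peritumoral replicate 3 or 4 and Gys2 without tumor replicate 5. The Gys2 share differed by -0.083 to 0.045 percentage points for diet and by -0.017 to 0.202 for tumors. Without the 2 libraries those differences were 0.009 and 0.202 (exact permutation p = 0.014).

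Samples with equal replicate numbers did not deviate together (mean correlation from -0.181 to 0.149 over the comparisons, with a pair at 0.1 or below in each), and the labels do not say that a number marks 1 mouse. With the replicate number as a block, 2 of the 9 genes passed for diet in DEN-treated liver (Pck1 lower at -0.67, adjusted p = 0.0155, and Pcx higher) and 1 for DEN in western-diet liver (Pck1 lower at -0.69, adjusted p = 0.0138), where 1119 of all genes passed. Gbe1 in tumors against nonDEN-L-CD was then at 0.38 (adjusted p = 0.111) and Pck1 in peritumoral liver against nonDEN-L-CD at -1.03 (adjusted p = 0.000173).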
